A study of Mus musculus with 8 samples.

Results

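The genes that carry fatty acids into mitochondria were examined for acetylation of lysine 27 of histone H3 (H3K27ac), a mark found at active promoters and enhancers. Members were the deposited H3K27ac intervals that touched Cpt1a, Cpt1b, Cpt1c, Cpt2, Slc25a20 or Crat, or the 20 kb on each side of the gene. These 6 of 21627 protein-coding genes held 52 of the 81522 intervals listed for vehicle-treated cells and 121 of the 253423 intervals listed for EnPGC-1-treated cells. ChIP-seq was done on CD8+ T cells of C57BL/6 mice, purified from lymph node and spleen, stimulated with antibodies to CD3 and CD28, and treated for 48 h with EnPGC-1 or DMSO, the vehicle. By its label EnPGC-1 is one of the PIPs, a name used for pyrrole-imidazole polyamides, synthetic molecules that bind the minor groove of DNA, and the series title ties the work to mitochondrial biogenesis. Each treatment had 2 H3K27ac samples and 1 input, and 2 IgG samples came from DMSO-treated cells. All samples shared the strain, the cell type and the stimulation. The comparison asked how H3K27ac differed between EnPGC-1 and DMSO.

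One peak list per treatment was used, so the spread between samples could not be measured and treatments were compared without a test. Values given as with DMSO or with EnPGC-1 were read from these lists. Nothing in the labels says whether the samples came from separate animals. Depth per sample is unknown here, and a difference in depth or in the control used for calling cannot be told apart from a difference in acetylation. Nor can more cells that carry the mark be told apart from more mark per cell. The EnPGC-1 list was the larger list throughout the genome, with 3.11 times as many intervals and 4.00 times as many covered bases as the DMSO list. Every value below is read beside that excess. Of 11 T cell marker genes found in the annotation, 7 had an interval within 1 kb of the start (or of either gene end where no strand was given) with DMSO and 9 with EnPGC-1. For 13 marker genes of other blood cells, the numbers were 3 and 4, and the B cell gene Cd79a and the myeloid gene Csf1r were marked in both lists. The covered share of the region (gene and 20 kb on each side) ran from 0.796% to 13.7% at T cell genes and from 0 to 10.2% at the others with DMSO. With EnPGC-1 it ran from 4.69% to 39.0% and from 0.684% to 33.8%. Itgam, Itgax, Ncr1, Ppbp and Ms4a1, markers of myeloid cells, natural killer cells, platelets and B cells, were at 0 with DMSO. With EnPGC-1 these genes were at 8.73%, 12.2%, 1.66%, 5.15% and 0.684%, in that order. A part of other cells in the results was not tested. By the same rule, 35.5% of all protein-coding genes were marked with DMSO and 68.4% with EnPGC-1. Of the T cell genes, Cd3d, which encodes a chain of the T cell receptor complex, was marked in neither list.

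Long-chain fatty acids cross the mitochondrial membranes as carnitine esters. Carnitine palmitoyltransferase 1 in the outer membrane makes the ester, the carrier encoded by Slc25a20 exchanges it for free carnitine across the inner membrane, and carnitine palmitoyltransferase 2, encoded by Cpt2, gives the acyl group back to coenzyme A inside. Cpt1a encodes the form found in liver, lymphocytes and many other tissues, Cpt1b the form of heart and skeletal muscle, and Cpt1c a form found mainly in neurons. Crat encodes carnitine acetyltransferase, which moves acetyl groups between coenzyme A and carnitine. CPT1 is inhibited by malonyl-CoA, which makes it a control point of fatty acid oxidation, a pathway known from work on memory CD8+ T cells.

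The sequences just before the start are shown for the genes whose start the reference table gives, since the intervals fall on them differently. They are the 250 bases before the start in RefSeq (GRCm38.p6, the coordinates of mm10), written 5′ to 3′ on the strand of the gene. Table entries matched 4 of the 6 members. Capitals mark matches on either strand to GGGCGG (the GC box), CCAAT (the CCAAT box), AGGTCA (the core of many nuclear receptor sites), CCGGAAG (an ETS site) and TGTGGT (a RUNX site).
Cpt1a, chr19:3323051-3323300, plus strand: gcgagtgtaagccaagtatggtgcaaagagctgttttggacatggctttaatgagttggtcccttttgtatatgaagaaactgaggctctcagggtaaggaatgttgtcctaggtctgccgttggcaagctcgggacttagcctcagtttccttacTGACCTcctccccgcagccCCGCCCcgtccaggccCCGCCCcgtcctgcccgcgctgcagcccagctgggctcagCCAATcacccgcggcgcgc
Cpt1c, chr7:44974852-44975101, minus strand: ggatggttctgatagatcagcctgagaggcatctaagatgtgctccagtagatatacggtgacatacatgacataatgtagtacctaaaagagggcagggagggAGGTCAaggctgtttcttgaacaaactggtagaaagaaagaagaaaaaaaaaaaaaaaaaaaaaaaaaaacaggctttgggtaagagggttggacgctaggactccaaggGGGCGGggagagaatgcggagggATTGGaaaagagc
Cpt2, chr4:107923590-107923839, minus strand: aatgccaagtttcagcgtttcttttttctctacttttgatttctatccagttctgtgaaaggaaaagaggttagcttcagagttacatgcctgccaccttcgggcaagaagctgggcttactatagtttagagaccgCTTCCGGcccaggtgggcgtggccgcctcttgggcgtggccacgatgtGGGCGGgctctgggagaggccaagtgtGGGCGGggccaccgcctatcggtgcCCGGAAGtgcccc
Slc25a20, chr9:108661886-108662135, plus strand: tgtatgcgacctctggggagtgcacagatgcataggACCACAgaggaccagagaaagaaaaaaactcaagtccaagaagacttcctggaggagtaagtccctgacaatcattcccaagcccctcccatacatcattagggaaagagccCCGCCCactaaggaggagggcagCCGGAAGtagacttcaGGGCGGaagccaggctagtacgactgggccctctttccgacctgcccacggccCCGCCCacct

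A DMSO interval covered 55 of the 250 bases at Cpt1a, and an EnPGC-1 interval covered 53 at Cpt2. The windows of Cpt1c and Slc25a20 had 0 covered bases in both lists. Over the 21044 such windows of protein-coding genes, 16.4% were touched by a DMSO interval and 43.6% by an EnPGC-1 interval. The GC box was found in all 4 windows, with 2 matches at Cpt1a, 1 at Cpt1c, 2 at Cpt2 and 3 at Slc25a20. It is a common motif, present in 43.0% of all windows. The CCAAT box was found at Cpt1a and Cpt1c, and in 35.6% of all windows. AGGTCA was found at Cpt1a and Cpt1c (12.8% of all windows), CCGGAAG at Cpt2 and Slc25a20 (9.07%), and TGTGGT at Slc25a20 alone of the 4 (12.2%). No match in these windows was found for TATAAA, the TATA box, which 11.7% of all windows hold. The response element of PPAR and RXR, a repeat of AGGTCA with 1 base between, was not found in the 4 windows and was found in 0.0428% of all. TNAAGGTCA, an element of ERR receptors that also contains AGGTCA, was not found either (0.965% of all). The same held for the site of NRF1 (5.23%), CACGTG, the E box (6.70%), and TGACGTCA, the cAMP response element (1.94%). GC content was 59.6% at Cpt1a, 56.8% at both Cpt2 and Slc25a20, and 44.0% at Cpt1c, beside a median of 55.6% over all windows. The window of Cpt1c thus had the lowest GC content of the 4, and only 16.8% of all windows had less. It also held 4 CpG dinucleotides, against 14 at Cpt1a, 13 at Cpt2 and 8 at Slc25a20.

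Both lists held intervals in the regions of all 6 genes, where at least 1 interval was listed for 81.1% of protein-coding genes with DMSO and for 94.1% with EnPGC-1. Together the 6 regions span 386.923 kb. DMSO intervals covered 7.69% of these bases and EnPGC-1 intervals 23.9%, a ratio of 3.11. The same ratio was 3.80 over the regions of all protein-coding genes. Coverage was larger with EnPGC-1 at all 6 members, as at 93.0% of all genes. The median covered share of the 6 regions was 7.12% with DMSO and 24.7% with EnPGC-1, above the medians of all genes, 1.99% and 8.37%. The members were not alike in this: Slc25a20, at 6.51% with EnPGC-1, lay below the median of all genes, and Cpt2, at 8.84%, lay near it. The comparison with all genes depended on the scale. By the ratio of covered bases the 6 regions together stood below all genes, whereas the median difference in covered share was 15.3 percentage points for the members and 6.23 for all genes.

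**Figure D1:**
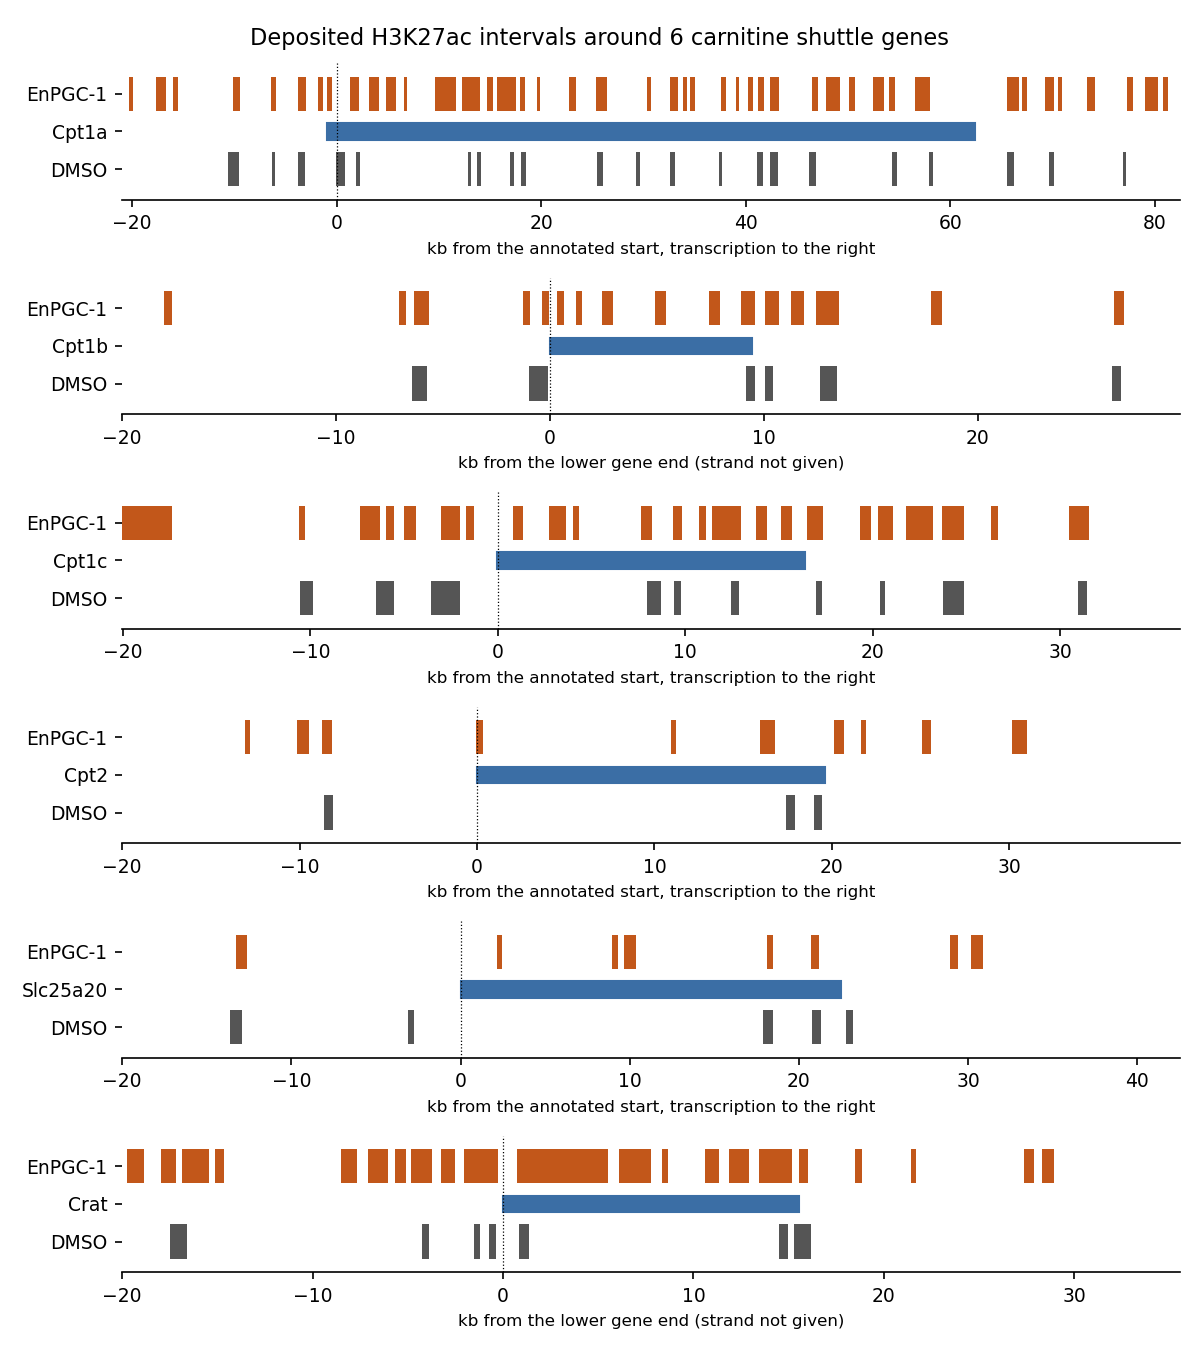
Intervals of the EnPGC-1 list (orange) and the DMSO list (grey) above and below each gene (blue), with distance in kb from the annotated start, or from the lower gene end where no strand was given. Cpt1a shows 43 EnPGC-1 and 21 DMSO intervals, Slc25a20 shows 8 and 5, and 66.3% of the Crat gene body is covered by EnPGC-1 intervals.

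The members differed widely among themselves. With EnPGC-1 the covered share ran from 39.8% at Crat through 33.5% at Cpt1c, 32.7% at Cpt1a, 16.6% at Cpt1b and 8.84% at Cpt2 to 6.51% at Slc25a20. The order with DMSO was different: 12.4% at Cpt1c, 10.9% at Cpt1a, 7.20% at Cpt1b, 7.05% at Crat, 4.16% at Slc25a20 and 2.43% at Cpt2. With 1 list per treatment, it cannot be said which neighbours in these orders differ beyond the spread between samples. Crat had the largest ratio of covered bases, 5.66, and was the only member above 4, a ratio that 43.9% of genes with a DMSO interval reached. The ratios were 3.64 at Cpt2, 3.01 at Cpt1a, 2.70 at Cpt1c, 2.31 at Cpt1b and 1.57 at Slc25a20. Only 5.29% of genes with a DMSO interval had a lower ratio than Slc25a20, and the median ratio was 3.71.

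Of the 3 CPT1 genes, Cpt1a (RefSeq gene 12894) lies on chromosome 19 from 3322326 to 3385735 on the plus strand. Its region held 21 DMSO intervals over 11222 bases and 43 EnPGC-1 intervals over 33790 bases. The gene body itself was covered to 12.0% and 37.0%. Of the 21 DMSO intervals, 18 touched an EnPGC-1 interval (85.7%), where 73.7% of the whole DMSO list did so. By bases, 69.9% of the DMSO coverage in this region was shared with EnPGC-1, beside 62.0% genome-wide. The widest EnPGC-1 intervals lay well inside the gene. From 9605 bp past the start, the list held intervals of 2073 bp (chr19:3332906-3334978), 1797 bp (chr19:3335529-3337325) and 1902 bp (chr19:3338948-3340849). With gaps up to 1000 bp bridged, they formed a run of 8805 bp with others, from 3332906 to 3341710, and 99.3% of such EnPGC-1 runs in the genome were shorter. The DMSO list held in this stretch 4 short intervals, from 302 to 506 bp, the last of which reached past its end. The highest DMSO score in the Cpt1a region was 3.50, shared by an interval 12870 bp and another 46168 bp past the start. The widest DMSO interval, chr19:3312693-3313734 with 1042 bp, lay upstream. The score is the −log10 of the q-value as read here and ranks intervals within 1 list only. The highest EnPGC-1 score, 9.06, belonged to chr19:3388842-3390059, which lies at the start of the neighbouring gene Tesmin and not in Cpt1a.

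At the start of Cpt1a the lists were offset. The annotated start, 3323301, lay in a DMSO interval, chr19:3323246-3324120, which touched no EnPGC-1 interval. It scored 2.58, above 57.1% of the DMSO list. EnPGC-1 intervals lay on both sides of it, ending 461 bp before the start (chr19:3322304-3322840) and beginning 1302 bp after it (chr19:3324603-3325435). The RefSeq gene model begins 975 bp before this start, at 3322326, and that outer edge lay in the first of these EnPGC-1 intervals. Within 1 kb of the start 875 bases were covered with DMSO and 537 with EnPGC-1, so the DMSO list covered more. The medians of all genes with a known start were 0 and 467 bases, the latter near the EnPGC-1 value. Within 5 kb of the start the order turned, with 1938 bases covered with DMSO and 3800 with EnPGC-1. The 5 kb medians over 17273 genes with a known start were 0 and 999 bases, so both values were high in this wider window. Other DMSO intervals of this region without an EnPGC-1 partner were chr19:3352546-3352990 inside the gene and chr19:3400208-3400527 in Tesmin.

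Cpt1b (RefSeq gene 12895) lies on chromosome 15 from 89416405 to 89425862, and the reference tables give no strand for it. Its region held 6 DMSO intervals over 3560 bases and 16 EnPGC-1 intervals over 8228 bases. Between the lists, the gene body differed more than the flanks: 3.22% of its bases were covered with DMSO and 28.7% with EnPGC-1, a ratio of 8.90. In the lower and higher flanks the ratios were 1.34 and 2.02. All 6 DMSO intervals touched an EnPGC-1 interval. The higher gene end lay in an interval of each list, chr15:89425558-89425982 for DMSO and chr15:89425327-89425979 for EnPGC-1. Their scores of 1.36 and 2.68 exceeded only 0.405% and 24.6% of their lists. Beyond that end, after 486 bases, lies Chkb, the gene of choline kinase beta, on the minus strand. A readthrough RNA of Chkb and Cpt1b, annotated from 89416405 to 89429927, spans both. At the lower gene end the nearest intervals stopped 70 bp short of it with DMSO (chr15:89415444-89416335, the widest DMSO interval of the region at 892 bp) and 21 bp short with EnPGC-1 (chr15:89416044-89416384). Within 1 kb of that end the EnPGC-1 list also held chr15:89415150-89415465 and chr15:89416738-89417086. Within 1 kb of the higher end, in Chkb, lay chr15:89426479-89426830 of the DMSO list and chr15:89426443-89427140 of the EnPGC-1 list. Inside the gene body, apart from its higher end, 5 intervals were listed with EnPGC-1 and 0 with DMSO. The one with the highest score of the region, 6.27, was chr15:89421324-89421834, above 92.1% of its list. The highest DMSO score, 4.52, belonged to chr15:89409971-89410639 at a start of the meiotic gene Syce3. The widest EnPGC-1 interval, chr15:89428871-89429914 with 1044 bp, lay at the start of Chkb.

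Cpt1c (RefSeq gene 78070) lies on chromosome 7 from 44958483 to 44974880 on the minus strand. Its region held 10 DMSO intervals over 7009 bases and 23 EnPGC-1 intervals over 18905 bases. No DMSO interval lay within 1 kb of the annotated start, 44974851, and the nearest was 2014 bp upstream, inside the arginine methyltransferase gene Prmt1 (chr7:44976865-44978430). With 1566 bp it was the widest DMSO interval of the 6 regions. The highest DMSO score here, 4.00, was also in Prmt1 (chr7:44980408-44981355). With EnPGC-1 chr7:44973530-44974063 lay 788 bp past the start, with a score of 4.21 above 62.1% of the list. All 10 DMSO intervals touched an EnPGC-1 interval, and 11 of 23 EnPGC-1 intervals touched no DMSO interval. In the gene body the covered share was 9.51% and 36.2%. The highest EnPGC-1 score near Cpt1c, 7.17, lay there 10709 bp past the start (chr7:44963749-44964142) and had no DMSO partner. The widest, chr7:44992222-44995408 with 3187 bp and 5 summits, lay in the neighbouring gene Bcl2l12 and ran across the edge of the region.

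Cpt2, whose product completes the transfer inside mitochondria (RefSeq gene 12896), lies on chromosome 4 from 107903982 to 107923589 on the minus strand. It was the most sparsely marked member with DMSO, with 3 intervals over 1448 bases, against 10 over 5271 bases with EnPGC-1. Its start, 107923589, lay in the EnPGC-1 interval chr4:107923274-107923642 and in no DMSO interval. This interval scored 1.34, higher than only 0.518% of its list, so it stood at the limit of what was listed. The nearest DMSO interval was 8132 bp upstream. Towards the 3′ end the lists held different intervals. DMSO intervals chr4:107904153-107904598, which scored 4.00, above 91.5% of its list, and chr4:107905677-107906160 touched no EnPGC-1 interval. EnPGC-1 intervals lay around both, 486 bp outside the gene end (chr4:107902923-107903496) and further into the gene (chr4:107906788-107907653). The 1 interval found in both lists was upstream, chr4:107931721-107932238 for DMSO and chr4:107931788-107932302 for EnPGC-1. The highest EnPGC-1 score of the region, 6.45, lay 9486 bp upstream of the start, at chr4:107933075-107933749.

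Slc25a20, the carnitine-acylcarnitine carrier gene (RefSeq gene 57279), lies on chromosome 9 from 108662136 to 108684642 on the plus strand. Its covered share differed least between the lists, with 5 DMSO intervals over 2598 bases and 8 EnPGC-1 intervals over 4070 bases. No interval of either list lay within 1 kb of its start. The nearest were a DMSO interval 2775 bp upstream (chr9:108659017-108659361) and an EnPGC-1 interval 2134 bp past the start (chr9:108664270-108664571), and neither touched the other list. A DMSO interval without an EnPGC-1 partner lay at the 3′ end, 270 bp beyond the gene (chr9:108684912-108685317), with a score of 1.36. A rule that takes either gene end as a start would therefore have marked Slc25a20 in the DMSO list alone, from an interval at its 3′ end. Upstream of the gene 1065 bases were covered with DMSO and 657 with EnPGC-1, the 1 part of any of the 6 regions, split into gene body and flanks, where the DMSO list covered more. This flank held the highest DMSO score of the 6 regions, 5.77, at chr9:108648480-108649199 near a start of the ubiquitin ligase gene Arih2. In the gene body, chr9:108671093-108671458 scored 6.45 with EnPGC-1 and had no DMSO partner.

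Crat, the acetyltransferase gene (RefSeq gene 12908), lies on chromosome 2 from 30400476 to 30416017, with no strand in the reference tables. It showed the largest difference between the lists, with 7 DMSO intervals over 3913 bases and 21 EnPGC-1 intervals over 22132 bases. Its difference in covered share was 32.8 percentage points, and 96.6% of all protein-coding genes had a smaller one. Coverage of the gene body was 8.18% with DMSO and 66.3% with EnPGC-1. Its widest interval, chr2:30401194-30405971, measured 4778 bp with 7 summits, and 99.9% of EnPGC-1 intervals were narrower. With DMSO the same stretch held 1 interval of 527 bp (chr2:30401301-30401827). With gaps up to 1000 bp bridged, EnPGC-1 intervals ran for 17185 bp from 30391951 to 30409135, across the neighbouring gene Dolpp1 and into Crat. The highest EnPGC-1 score of the region, 7.08, lay in Dolpp1 (chr2:30394818-30395356). The widest DMSO interval, chr2:30382986-30383879 with 894 bp, lay in Miga2, a further neighbour. All 7 DMSO intervals touched an EnPGC-1 interval. The higher gene end lay in an interval of each list, chr2:30415782-30416663 for DMSO and chr2:30416016-30416504 for EnPGC-1. The DMSO interval scored 4.00, above 91.5% of its list, and the EnPGC-1 interval 4.10, above 61.1%. Only 32 bases separate this end from the phosphatase activator gene Ptpa, so these intervals cannot be assigned to either gene. Also within 1 kb of a gene end were the DMSO intervals chr2:30414955-30415462, chr2:30399720-30400103 and the one of 527 bp. On the EnPGC-1 side these were chr2:30413902-30415657, chr2:30398433-30400197 and the widest interval.

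**Figure D2:**
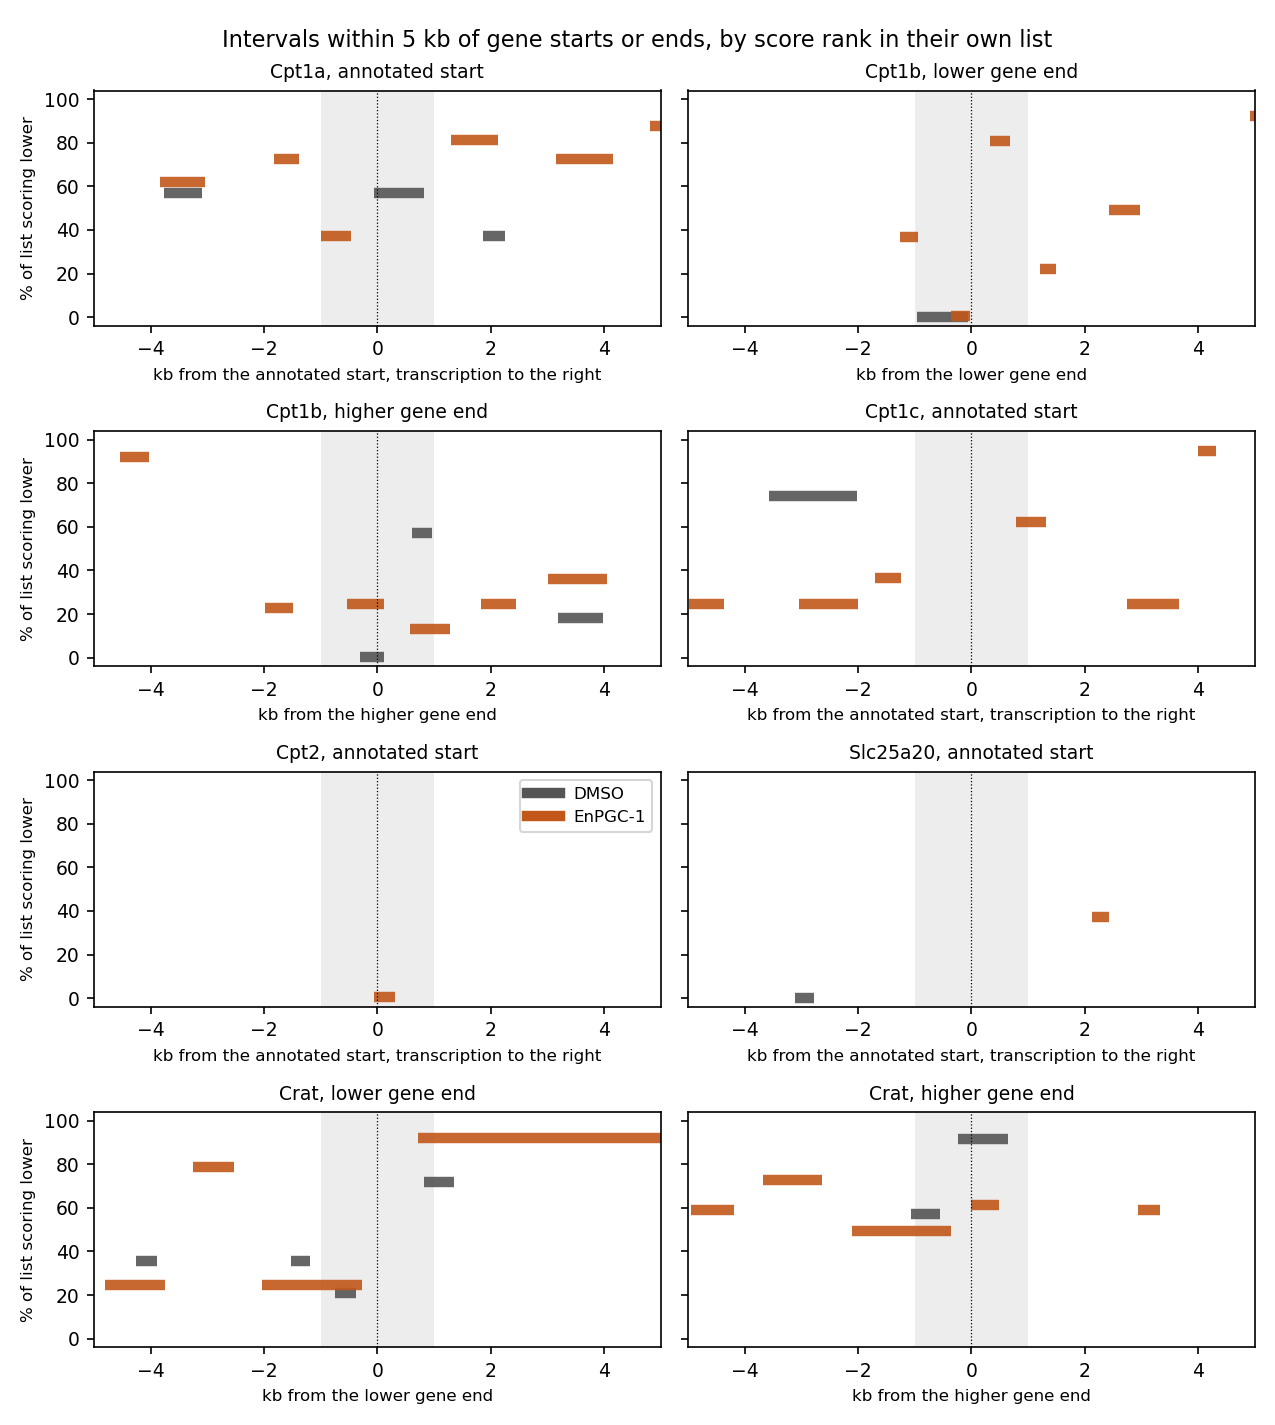
Intervals within 5 kb of each annotated start, or of both gene ends where no strand was given, as bars at the percentage of their own list that scored lower; grey shading marks 1 kb on each side. At Cpt1a the DMSO bar crosses the start and EnPGC-1 bars lie on both sides, at Cpt2 a single EnPGC-1 bar sits at the bottom of the scale, and at Slc25a20 the shaded band is empty.

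Counted at the start, or at either gene end for Cpt1b and Crat, 3 of 6 members had a DMSO interval within 1 kb and 5 of 6 had an EnPGC-1 interval. The shares of all genes by this rule were 35.5% and 68.4%. Cpt1a, Cpt1b and Crat had both, Cpt1c and Cpt2 had an EnPGC-1 interval alone, and Slc25a20 had neither. Among the 4 genes with a known start, 1 had a DMSO interval and 3 had an EnPGC-1 interval, beside 33.5% and 67.3% of the 17273 genes of this kind. Of those genes, 30.5% were marked in both lists, 36.8% in the EnPGC-1 list alone, 3.09% in the DMSO list alone and 29.6% in neither. Both members without a strand were marked in both lists, where 43.0% and 72.9% of the 4354 genes without a strand had an interval at either end. With such shares among all genes, the counts of the 6 members do not set them apart.

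Of the 52 DMSO intervals of the 6 regions, 45 touched an EnPGC-1 interval (86.5%, exact 95% binomial interval 74.2 to 94.4, for counting error only), beside 73.7% of the whole DMSO list. The share was 62.1% with both lists limited to intervals at or above their median scores, and 30.8% with equal numbers of intervals. Both settings leave fewer EnPGC-1 intervals to touch anywhere in the genome. The whole-list share at these settings is not given here, and 73.7% is no background for them. In the other direction, 47 of 121 EnPGC-1 intervals touched a DMSO interval (38.8%, 30.1 to 48.1), beside 23.1% of the whole list. Intervals of 1 gene are not independent, and 21 of the 52 lay at Cpt1a, so these ranges are no test against the whole lists. The 6 regions were also more covered with EnPGC-1 than all gene regions together, 23.9% against 11.2%. A part of this density in the touching shares was not tested. The 7 intervals in the DMSO list alone lay at Cpt1a (3), Cpt2 (2) and Slc25a20 (2), and are all named above. Moving the edge of the regions to 19 kb left 52 and 121 intervals, and moving it to 21 kb gave 55 and 127. By bases, 69.3% of the DMSO coverage was also covered with EnPGC-1, beside 62.0% in the whole list. This share was 81.8% at Crat, 78.7% at Cpt1b, 75.2% at Cpt1c and 69.9% at Cpt1a, but 40.0% at Slc25a20 and 31.1% at Cpt2. By this share of DMSO bases, the lists coincided least at the sparsely marked Cpt2 and Slc25a20. The share of EnPGC-1 bases also covered with DMSO gave another order. It was 8.56% at Cpt2, 14.5% at Crat, 23.2% at Cpt1a, 25.6% at Slc25a20, 27.9% at Cpt1c and 34.0% at Cpt1b.

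Intervals in the 6 regions had a larger median width than the whole lists. Their median width was 507 bp with DMSO and 607 bp with EnPGC-1, against 431 and 499 bp in the whole lists. With EnPGC-1 the median was 801 bp at Crat, 640 bp at Cpt1a and 607 bp at Cpt1c. It was 504.5 bp at Cpt2, 484.5 bp at Cpt1b and 476.5 bp at Slc25a20, near or below the whole list. With DMSO the medians ran from 484 bp at Cpt2 to 583 bp at Cpt1c. Scores in the 6 regions were near the middle of each list, with medians of 2.16 and 3.69 against 2.16 and 3.64 overall. At or above the list median were 29 of 52 DMSO and 64 of 121 EnPGC-1 intervals. The members differed in this respect: 29 of 43 EnPGC-1 intervals at Cpt1a, 14 of 23 at Cpt1c and 13 of 21 at Crat reached the list median, but 3 of 16 at Cpt1b, 2 of 10 at Cpt2 and 3 of 8 at Slc25a20.

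With each list limited to intervals at or above its own median score, the covered shares in the DMSO and EnPGC-1 lists were 6.81% and 24.7% at Cpt1a, 8.97% and 24.0% at Cpt1c, and 5.06% and 26.2% at Crat. They were nearly equal at Cpt1b (2.06% and 2.69%), Cpt2 (1.56% and 1.65%) and Slc25a20 (2.00% and 2.54%). With the EnPGC-1 list limited to as many of its highest-scoring intervals as the DMSO list holds, the order turned at those 3 genes. There the covered share with EnPGC-1 was 1.74% at Cpt1b, 1.13% at Cpt2 and 2.54% at Slc25a20, below the DMSO values of 7.20%, 2.43% and 4.16%. It stayed above the DMSO value at Crat, with 19.1% against 7.05%, at Cpt1a, with 19.1% against 10.9%, and at Cpt1c, with 16.7% against 12.4%. The lowest EnPGC-1 score kept was 4.21, with ties taken from the widest down, and the DMSO list was kept whole. By this count EnPGC-1 coverage was still the larger at 65.9% of all genes and the smaller at 23.3%. At the start, the EnPGC-1 intervals of Cpt1a, Cpt1c and Cpt2 were all lost with equal numbers. With the median score, Cpt1c kept its interval and the other 2 did not. Among all genes, the share with an EnPGC-1 start interval fell too, from 68.4% as deposited to 43.8% with the median score and 32.4% with equal numbers.

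**Figure D3:**
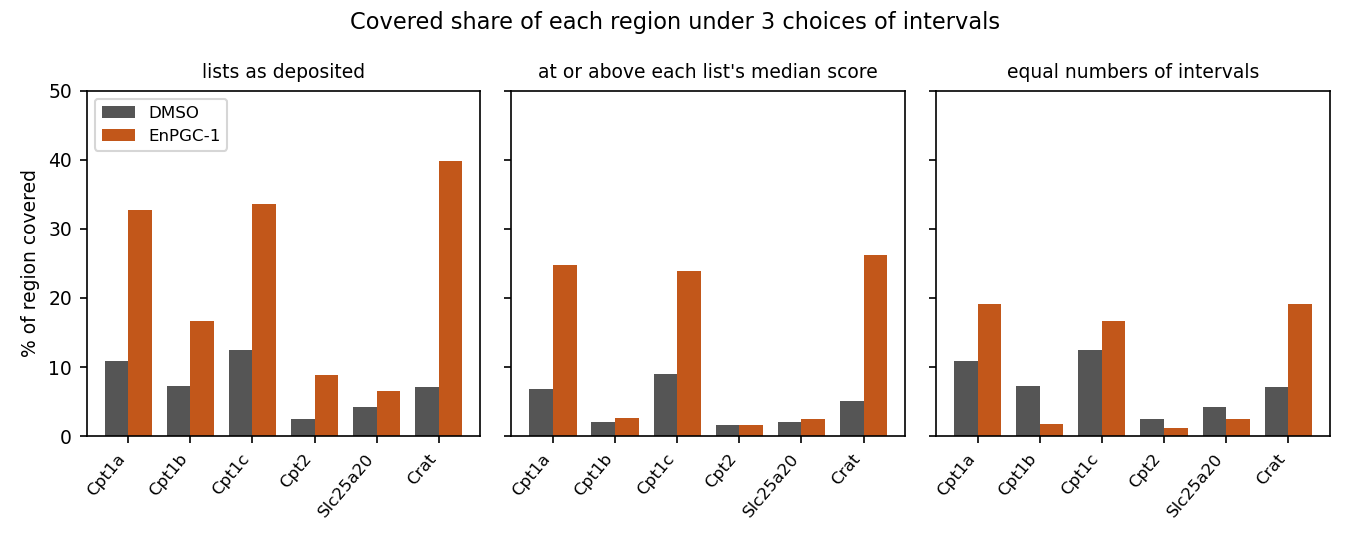
Bars give the percentage of each gene region covered by intervals of the DMSO list (grey) and the EnPGC-1 list (orange) as deposited, at or above each list's median score, and with equal numbers of intervals. In the last panel the EnPGC-1 bar is lower than the DMSO bar at Cpt1b, Cpt2 and Slc25a20 and higher at Cpt1a, Cpt1c and Crat.

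The surroundings of the genes were marked as well. In the 250 kb beyond each side of the region, EnPGC-1 coverage was 34.0% at Crat, 33.8% at Cpt1c, 24.1% at Cpt1b, 23.1% at Cpt2, 19.6% at Slc25a20 and 17.0% at Cpt1a. Cpt1a, at 32.7% in its own region, therefore stood above its surroundings, and DMSO coverage there showed the same, 10.9% against 5.21%. Cpt2 and Slc25a20 stood below theirs in both lists, with DMSO coverage of 2.43% against 7.13% and of 4.16% against 5.56%. At Crat the EnPGC-1 share exceeded that of its surroundings while the DMSO share did not, at 7.05% against 8.05%. At Cpt1b it was the other way round, with 16.6% against 24.1% for EnPGC-1 and 7.20% against 6.04% for DMSO. At Cpt1c the 2 shares of each list were close, 12.4% against 11.0% for DMSO and 33.5% against 33.8% for EnPGC-1. These are single values without a test.

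Other genes of the pathway were taken from 5 lists with 58 members in the annotation. At the start (or either end without strand), 22 of 58 (37.9%) had a DMSO interval and 45 (77.6%) an EnPGC-1 interval, beside 35.5% and 68.4% of all genes. In 26 genes the interval was in the EnPGC-1 list alone, in 3 in the DMSO list alone, in 19 in both and in 10 in neither. Among all genes with a known start these shares were 36.8%, 3.09%, 30.5% and 29.6%. The 58 also include genes without a strand. EnPGC-1 coverage of the region exceeded DMSO coverage in 57 of 58, beside 93.0% of all genes. At Tmlhe, an enzyme gene of carnitine synthesis, both were 0. The median covered shares over the 58 were 2.35% and 10.4%, below those of the 6 shuttle genes.

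By step of the pathway, genes of carnitine supply and other carnitine acyltransferases were covered least, with medians over 7 genes of 0.758% with DMSO and 6.33% with EnPGC-1. The largest differences there were at the carnitine transporter gene Slc22a5, with 0.758% and 9.81%, and at Aldh9a1, an enzyme gene of carnitine synthesis, with 4.27% and 12.6%. A start interval was listed for 3 of the 7 carnitine supply genes with DMSO and for 4 with EnPGC-1. Genes that set the malonyl-CoA brake on CPT1 had medians over 8 genes of 4.75% and 18.5%. None of the 8 had a DMSO interval at the start, and 6 had an EnPGC-1 interval, beside 35.5% and 68.4% of all genes. Prkag1, a subunit gene of the kinase AMPK, was covered to 7.77% and 43.3%, and Mlycd, which encodes the enzyme that breaks down malonyl-CoA, to 10.4% and 45.0%. Uptake and activation genes (15) had medians of 1.89% and 10.6%, with the fatty acid transporter genes Slc27a1 (11.2% and 40.0%) and Slc27a4 (6.55% and 29.7%) leading. At the start, 7 of the 15 had a DMSO interval and 10 an EnPGC-1 interval. For the enzymes of beta-oxidation (19 genes) the medians were 2.42% and 11.2%. A start interval was listed for 7 of them with DMSO and for 17 with EnPGC-1. Acadvl, the acyl-CoA dehydrogenase gene for very long chains, had 9.12% and 41.2%, and Etfb, which encodes a subunit of the electron transfer flavoprotein, 3.94% and 32.4%. The 9 regulators had medians of 6.54% and 24.5%, nearest to those of the shuttle genes. Their largest differences were at the nuclear receptor genes Rxra, with 18.1% and 55.2%, and Ppard, with 14.0% and 48.6%. Of the 9 regulators, 5 had a start interval with DMSO and 8 with EnPGC-1.

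**Figure D4:**
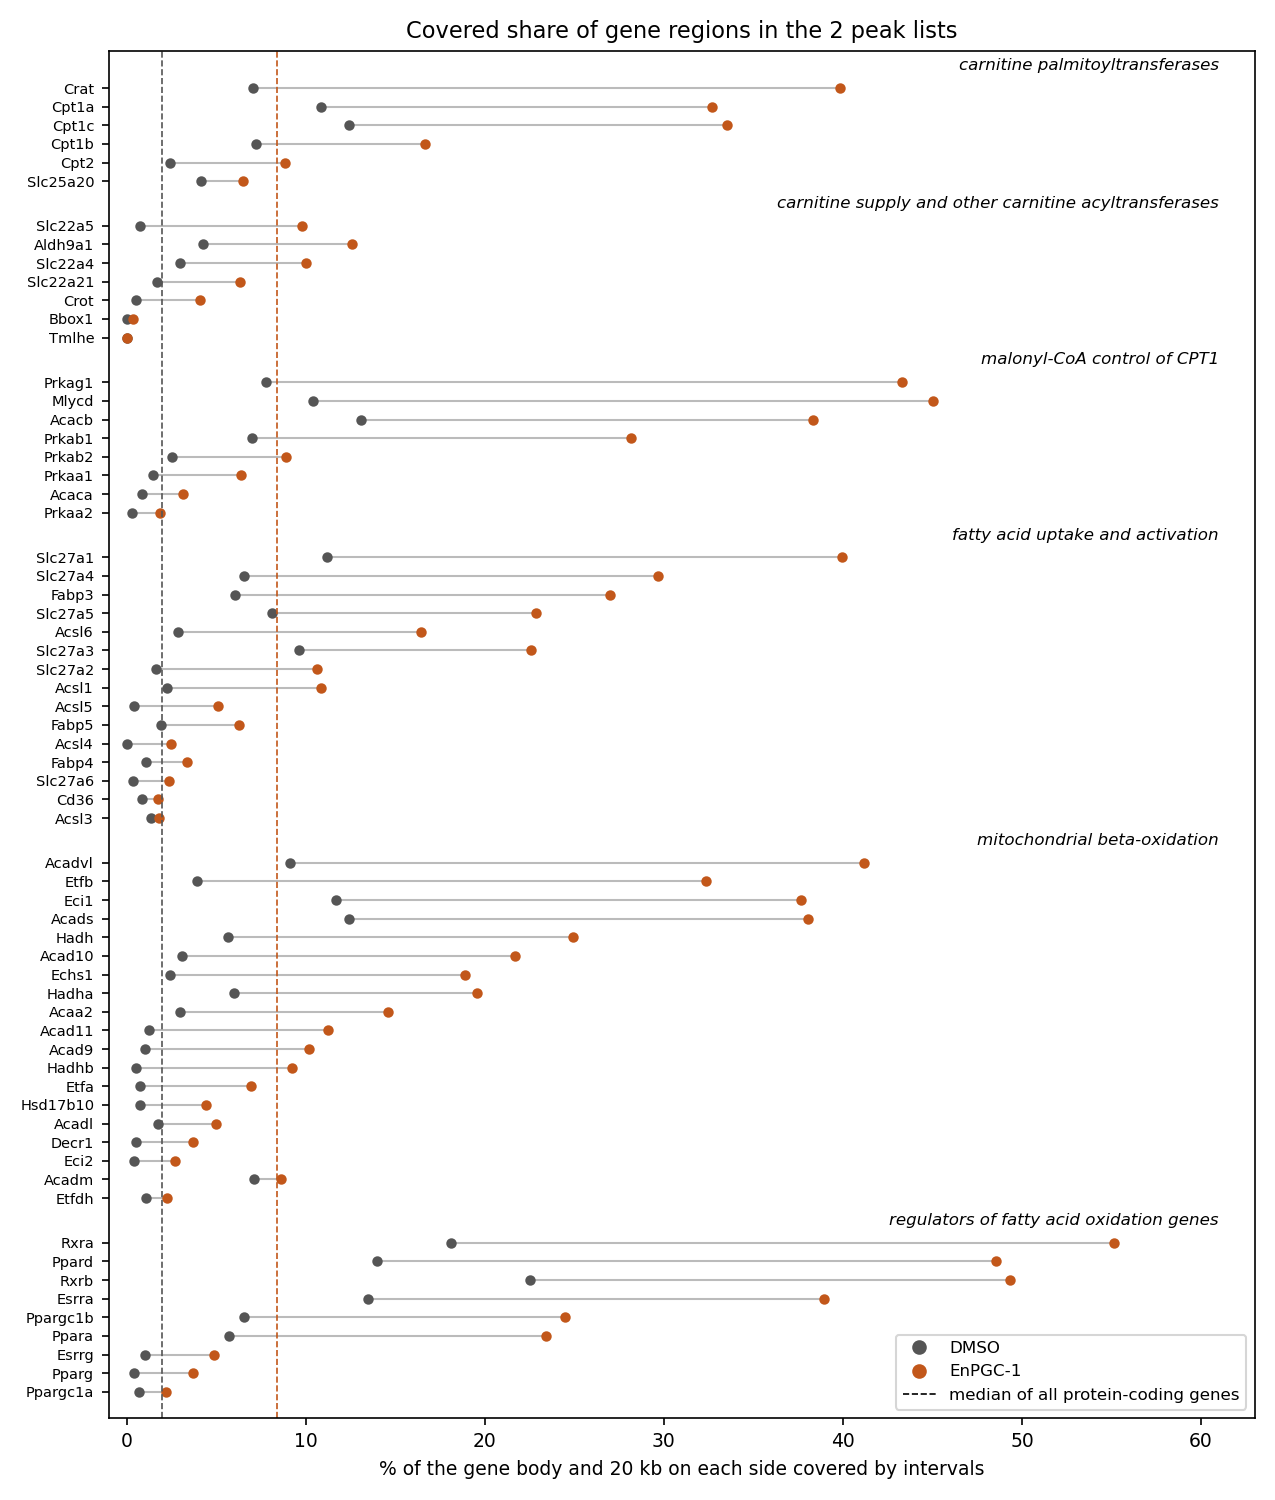
Each line joins the percentage of a gene's region covered by DMSO intervals (grey) and by EnPGC-1 intervals (orange) for the 6 members and 58 other pathway genes, with dashed lines at the medians of all protein-coding genes (1.99% and 8.37%). Of the members, Slc25a20 alone lies below the EnPGC-1 median of all genes, and its line is the shortest of the 6.

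The pathway genes most like each member were found by the distance between their pairs of covered shares, over the 2 lists and 63 candidates. Cpt1a and Cpt1c were nearest to each other, at 1.79 percentage points, and the isomerase gene Eci1 was the next for both, at 5.04 and 4.18. Crat was nearest to Acadvl (2.46) and Prkag1 (3.55). Cpt1b was nearest to Hadha, which encodes a subunit of the trifunctional protein (3.19), and to the acyl-CoA synthetase gene Acsl6 (4.35). Cpt2 was nearest to Prkab2, another AMPK subunit gene, at 0.108, and to the transporter gene Slc22a4 (1.32). Slc25a20 was nearest to the fatty acid binding protein gene Fabp5 (2.28) and to Slc22a21 (2.49).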

How the data were processed

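H3K27ac ChIP, IgG and input libraries of mouse CD8+ T cells were sequenced. The submitters' processing notes name MACS2 2.2.2.20160309, Bowtie 1.1.2, ChIPseeker 11.16.1, Trimmomatic 0.38, Picard 0.118 and mm10. Not given in the sources used here are the calling parameters, the control and any pooling of samples. The score the authors deposited with each peak was taken for a peak caller's −log10 q-value, since the lowest scores, 1.31, lie just above 1.30, the −log10 of 0.05. Entries repeating an interval were combined with the highest score (DMSO, 84538 to 81522, and EnPGC-1, 329623 to 253423).

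Genes came from RefSeq (GRCm38.p6) on the 20 listed chromosomes. The promoter table gave starts for 17273, and either gene end served for 4354. Overlap required 1 bp, binomial intervals are Clopper-Pearson, coordinates are 1-based, and motifs were searched on both strands with overlapping matches counted. Python 3.11.15 was used, and calculations were tested on simulated data.

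Members and lists were chosen with earlier results of these data known. Surroundings, runs of joined intervals and motifs were added after values had been seen. The text names each member's start, top-scoring, widest and DMSO-only intervals, neighbours with intervals, up to 2 genes per pathway list with the largest difference (none was negative), and the 2 nearest genes. Alternatives were other scores, numbers, widths, joining, regions, windows and overlaps. Per-sample data were not analysed here.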

Additional observations from a re-analysis of the deposited data

How the results depend on the processing

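As deposited, the 6 regions held 52 DMSO and 121 EnPGC-1 intervals, covering 7.69% and 23.9%, a ratio of 3.11, with 3 and 5 members marked at the start. At or above each list's median score, there were 29 and 64 intervals covering 4.68% and 14.9%, and 62.1% of DMSO intervals touched an EnPGC-1 interval. An EnPGC-1 start interval was then listed for 3 members, beside 43.8% of all genes, at Cpt1b from the lower gene end alone. With equal numbers of intervals, 47 EnPGC-1 intervals covered 11.1%, the ratio was 1.44, and 30.8% of DMSO intervals touched one. The whole-list share of touching intervals is not given at either setting. An EnPGC-1 start interval was left at 2 members, Cpt1b and Crat, beside 32.4% of all genes. Both counts came from the lower gene end alone (chr15:89416738-89417086 and chr2:30401194-30405971). At Cpt1b the readthrough RNA with Chkb, a minus-strand gene, would make this the 3′ end. At Crat the strand is not given here. Equal numbers reversed the difference in covered share (EnPGC-1 minus DMSO) to -5.46 percentage points at Cpt1b, -1.30 at Cpt2 and -1.62 at Slc25a20. By construction, this setting removes intervals from the EnPGC-1 list alone. These were the only reversals among 36 values for single genes over the alternative settings. Of the others, 17 changed by more than a factor of 1.5 and 16 stayed within it. Without intervals under 500 bp there were 28 and 78 intervals covering 5.33% and 19.5%. Joining within 1000 bp left 61 EnPGC-1 intervals, with coverage of 8.67% and 32.6%. Gene bodies alone held 26 and 58 intervals covering 8.72% and 31.4%, and regions with 50 kb on each side 107 and 228, covering 8.24% and 26.7%. With a window of 5 kb at the start, 5 members were marked with DMSO and 6 with EnPGC-1, beside 53.2% and 80.0% of all genes. A window of 500 bp gave 3 and 4 members, beside 29.8% and 63.3%. No paired analysis was possible because each treatment has 1 list, and for the same reason no sample could be left out. Depth per sample, which limits how weak an interval could be listed, is unknown here.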

Other observations

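Genes that share the regions of the shuttle genes carried intervals of their own. At Prkar2a, a regulatory subunit gene of protein kinase A that begins 7500 bases beyond Slc25a20, the EnPGC-1 list held chr9:108691043-108691545 and chr9:108692317-108693034 near the start, the latter with a score of 6.45, and no DMSO interval lay within 1 kb. At Dolpp1, which overlaps the lower end of Crat, the start had an EnPGC-1 interval (chr2:30391951-30392802) and no DMSO interval. By the starts of the promoter table, those of Tesmin, Syce3, Chkb, Tsks and Arih2 had an interval within 1 kb in both lists, that of Prmt1 in the EnPGC-1 list alone, and those of Czib in neither. The T cell kinase gene Zap70 was covered to 7.36% with DMSO and 39.0% with EnPGC-1, and the coreceptor gene Cd8a to 1.18% and 7.03%. Of the genes for the coactivators of the PGC-1 family, Ppargc1a was covered to 0.693% and 2.21%, the lowest EnPGC-1 share of the 9 regulators, and Ppargc1b to 6.54% and 24.5%. These 4 genes were chosen after their values were seen.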
